A study of Mus musculus and Rattus norvegicus with 6 samples.

Results

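The UDP-glucuronosyltransferases (UGT), the cytosolic sulfotransferases (SULT) and the soluble glutathione transferases (GST) were followed in the liver of leptin-deficient mice and rats. Members were taken by symbol, as every probe set annotated to a symbol that begins with Ugt1a, Ugt2, Ugt3, Sult or one of the Gst classes a, k, m, o, p, t and z. This gave 85 of 32410 genes over both species, read by 108 of 76079 probe sets, of which 59 of 45037 were on the mouse array and 49 of 31042 on the rat array. The mouse probe sets were 16 UGT, 15 SULT and 28 GST, and 54 of them carried a single symbol and stood for 43 genes (10 UGT, 13 SULT and 20 GST). The rat probe sets were 11 UGT, 16 SULT and 22 GST, and 45 of them carried a single symbol and stood for 42 genes (8 UGT, 14 SULT and 20 GST). The remaining 5 mouse and 4 rat probe sets were annotated to several genes, and their values are given separately.

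Liver was taken at 20 weeks of age from animals labelled male, 6 h after an intraperitoneal injection. The 3 mouse groups, on the C57/BL6J background, were wild-type animals given saline, Lepob/Lepob animals given saline and Lepob/Lepob animals given recombinant murine leptin. The 3 rat groups, on the F344/NSlc background, were wild-type animals given saline, Lepmkyo/Lepmkyo animals given saline and Lepmkyo/Lepmkyo animals given the same murine leptin. Both mutations are in the leptin gene itself and leave the animal without functional leptin in every tissue, and the controls were littermates. The labels of the mutant rats conflict: their descriptions and the series' design give Lepmkyo/Lepmkyo, their titles Lepmyo/Lepmkyo, and their source names Lepob/Lepob, the allele of the mice. The descriptions were followed. No wild-type group given leptin was analysed here. Each group was 1 Affymetrix array, and the labels do not say whether an array held 1 animal or a pool, so no difference below has a replicate check and no p-value is given. The genotype comparison (mutant against wild type, both given saline) and the leptin comparison (mutant given leptin against mutant given saline) share the mutant saline array of each species.

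The 3 families make lipophilic compounds soluble by joining them to a polar group. UGTs of the endoplasmic reticulum transfer glucuronic acid from UDP-glucuronic acid to bilirubin, steroids, bile acids and drugs. SULTs of the cytosol transfer sulfate from PAPS to phenols, hormones, hydroxysteroids and bile acids, and GSTs join glutathione to electrophiles such as lipid peroxidation products. The liver is the main site of all 3 reactions, and several of their genes differ between the sexes in rodents.

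Values are linear array signals. A gene was represented by its brightest probe set, and it was compared between 2 arrays where either one was at or above a floor, the median of all signals of that species (82.7 for mouse, 97.0 for rat). A signal under the floor was raised to it, and the ratio is then a bound, written as at least N-fold. Differences of 2-fold or more are counted, and a difference between these arrays is a difference between those samples. Because whole liver was sampled, fewer cells of a type and less RNA per cell cannot be told apart. For all genes with several probe sets, the log2 ratios of the probe sets of a gene had an SD of 0.45 in the mouse and 0.44 in the rat genotype comparison, and of 0.26 and 0.25 in the leptin comparisons. That spread is a measure of how probe sets disagree within the same pair of arrays, not of animals.

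The arrays had trimmed mean signals of 496.0 to 496.9 and medians of 77.0 to 91.9 (mouse) and 93.6 to 99.3 (rat). Hepatocyte marker genes were at high signal, and 0 of 7 in mice and 1 of 8 in rats (Tat, tyrosine aminotransferase, 6.94-fold lower in the mutant) were 2-fold apart between genotypes. By sign 6 of 7 in mice and 8 of 8 in rats were lower in the mutant, with median log2 ratios of -0.36 and -0.18. Of 3 neutrophil markers, 2 were higher in mutant mice and 3 were higher after leptin than in the mutant given saline. S100a8 was at 97.7, 311.7 and 887.4 in the wild-type, mutant saline and mutant leptin arrays. Ngp, lower in the mutant, was at 120.6, 94.0 and 210.0. Of 5 macrophage markers of mice 3 were higher and 2 lower by sign in the mutant; Cd68 (385.2 and 771.7) passed 2-fold and Marco was 1.94-fold lower. All 3 bile duct markers that entered were lower by sign in mutant mice, with every ratio a bound (Epcam at least 2.24-fold). Alas2, the 1 red blood cell marker that entered, was 2.43-fold lower. All 5 stellate cell markers were higher by sign in mutant rats, 1 of them (Col3a1, 3.88-fold) past 2-fold.

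The sex-linked transcripts of the rat arrays went against the male label. On the 3 mouse arrays all 3 Xist probe sets were under the floor (3.1 to 54.3), and the brightest probe sets of the Y-linked genes Eif2s3y, Kdm5d and Uty were above it. On the 3 rat arrays all 4 Xist probe sets, which read a transcript of the inactive X chromosome, were above the floor, together with the Y-linked Uty and Eif2s3y. The wild-type rat array had the highest Xist signals, for one probe set 5252.1 against 3699.1 in the mutant saline and 2795.8 in the mutant leptin array. Of the genes listed as female-biased in liver, 6 of 7 were higher on it than on the mutant saline array. A1bg was at 17909.7, 33.5 and 82.1 and the prolactin receptor gene Prlr at 8244.5, 1946.0 and 2185.8 (wild type, mutant saline, mutant leptin). Over that list 4 of 7 rat genes were at least 2-fold lower in the mutant, with a median log2 ratio of -1.09 and a summed signal of 76755.2, 34260.4 and 38531.6 in the same order. The male-biased list had 0 of 9 rat genes 2-fold apart and a median of 0.03. Of all rat genes 2.99% were 2-fold higher and 1.45% lower in the mutant. Both lists were drawn up with the results of these arrays known, so they are not independent evidence against the male label. These animals cannot be left out, because each group is 1 array, and every rat genotype value below is given with this mismatch standing.

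Promoter sequence was looked at in mice, for the genes whose signals differed most. RefSeq starts (build GRCm38.p6) were matched by symbol to 38 of the 43 mouse genes, which gave 49 windows of the 250 bases before a start. The set below shows the SULT genes with the largest ratio in each direction between mutant and wild type (Sult1e1 and Sult2a8). It also holds the pair of Ugt2b genes whose windows were most alike, both at least 2-fold lower in signal (Ugt2b38 and Ugt2b37). The last is the GST gene with the largest ratio (Gstm3). Capitals mark AGGTCA, the half-site letters of many nuclear receptors, and TATAAA, searched on both strands; a match on the reverse strand appears as TGACCT or TTTATA. All 5 lie on the minus strand and are printed 5′ to 3′ in the direction of transcription. Sult2a8 has 2 starts, and the window shown is that of the lower coordinate, the downstream one. The windows are chr5:87591612-87591861 (Sult1e1), chr7:14438552-14438801 (Sult2a8), chr5:87424204-87424453 (Ugt2b38), chr5:87254789-87255038 (Ugt2b37) and chr3:107969175-107969424 (Gstm3).
Sult1e1: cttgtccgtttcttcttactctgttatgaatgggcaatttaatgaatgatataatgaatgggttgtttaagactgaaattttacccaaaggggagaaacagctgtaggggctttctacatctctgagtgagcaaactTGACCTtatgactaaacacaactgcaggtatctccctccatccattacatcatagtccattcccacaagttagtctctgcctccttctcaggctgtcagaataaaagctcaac
Sult2a8: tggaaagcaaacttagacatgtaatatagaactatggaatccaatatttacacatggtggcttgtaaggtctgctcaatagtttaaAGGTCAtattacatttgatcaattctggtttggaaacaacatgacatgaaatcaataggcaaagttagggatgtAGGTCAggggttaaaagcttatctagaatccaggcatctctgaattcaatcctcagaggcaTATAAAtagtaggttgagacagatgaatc
Ugt2b38: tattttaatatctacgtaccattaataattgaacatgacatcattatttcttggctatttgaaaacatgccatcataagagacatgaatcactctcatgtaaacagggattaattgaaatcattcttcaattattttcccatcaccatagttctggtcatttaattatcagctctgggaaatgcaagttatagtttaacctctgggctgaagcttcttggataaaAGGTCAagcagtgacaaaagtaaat
Ugt2b37: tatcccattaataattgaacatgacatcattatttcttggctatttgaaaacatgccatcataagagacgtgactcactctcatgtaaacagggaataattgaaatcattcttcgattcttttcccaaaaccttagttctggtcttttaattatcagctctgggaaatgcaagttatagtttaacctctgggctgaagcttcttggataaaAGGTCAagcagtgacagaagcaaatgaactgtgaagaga
Gstm3: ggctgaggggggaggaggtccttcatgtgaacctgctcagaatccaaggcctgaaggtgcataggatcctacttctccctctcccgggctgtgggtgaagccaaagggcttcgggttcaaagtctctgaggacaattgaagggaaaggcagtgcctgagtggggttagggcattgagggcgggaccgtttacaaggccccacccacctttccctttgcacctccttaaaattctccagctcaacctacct

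The Ugt2b38 and Ugt2b37 windows were 84.8% identical over a global alignment (224 of 264 columns), and the Ugt2b38 and Ugt2b5 windows 81.5%. AGGTCA was in 5 of 7 Ugt2b windows, and it began 25 bases before the start in Ugt2b38, 39 in Ugt2b37, 22 in Ugt2b5, 25 in Ugt2b36 and 215 in Ugt2b35. It began 113 bases before the start in Sult1e1, and 164 and 90 bases before it in the Sult2a8 window shown, which also had TATAAA at 29 bases. The window of the other Sult2a8 start held no AGGTCA and had TATAAA at 223 bases. The Gstm3 window held neither. In all, 9 of 49 family windows (18.4%) held AGGTCA and 7 (14.3%) held TATAAA, against 14.0% and 12.4% of all 32851 mouse windows of that length. The letters TGACNNNGC, the core of the antioxidant response element bound by NRF2, were in 3 of 49 windows (6.12%, those of Gsta3, Gstm5 and Gstm7) against 10.2% of all. TTCNNNGAA, the core letters bound by STAT5, were in 2 (4.08%, Gstm6 and Sult3a1) against 7.02%, and GCGTG, bound by the aryl hydrocarbon receptor, in 9 (18.4%) against 28.2%. A form of the HNF1 site was in 1 (2.04%, Sult1d1) against 0.371%. Of the 13 windows of mouse genes 2-fold apart in either comparison, AGGTCA was in 4, TATAAA in 3, GCGTG in 1, and the other 3 motifs in 0. These are matches of letters in a short window and describe no binding.

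In the mouse genotype comparison the families split in direction. Of 36 members that entered, 7 were at least 2-fold higher in Lepob/Lepob liver and 5 at least 2-fold lower, which is 33.3% of them 2-fold apart. Over all 11956 genes 8.16% were 2-fold apart, 4.46% higher and 3.71% lower. By family the 2-fold differences were 0 higher and 3 lower of 10 UGT genes, 2 higher and 2 lower of 8 SULT genes, and 5 higher and 0 lower of 18 GST genes. The median log2 ratio was -0.38 for UGT, 0.56 for SULT and 0.61 for GST, against -0.03 for all genes. Centring the arrays on their medians moved the median of all genes to 0.22 and those of the families with it, to -0.12 for UGT and 0.87 for GST.

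**Figure D1:**
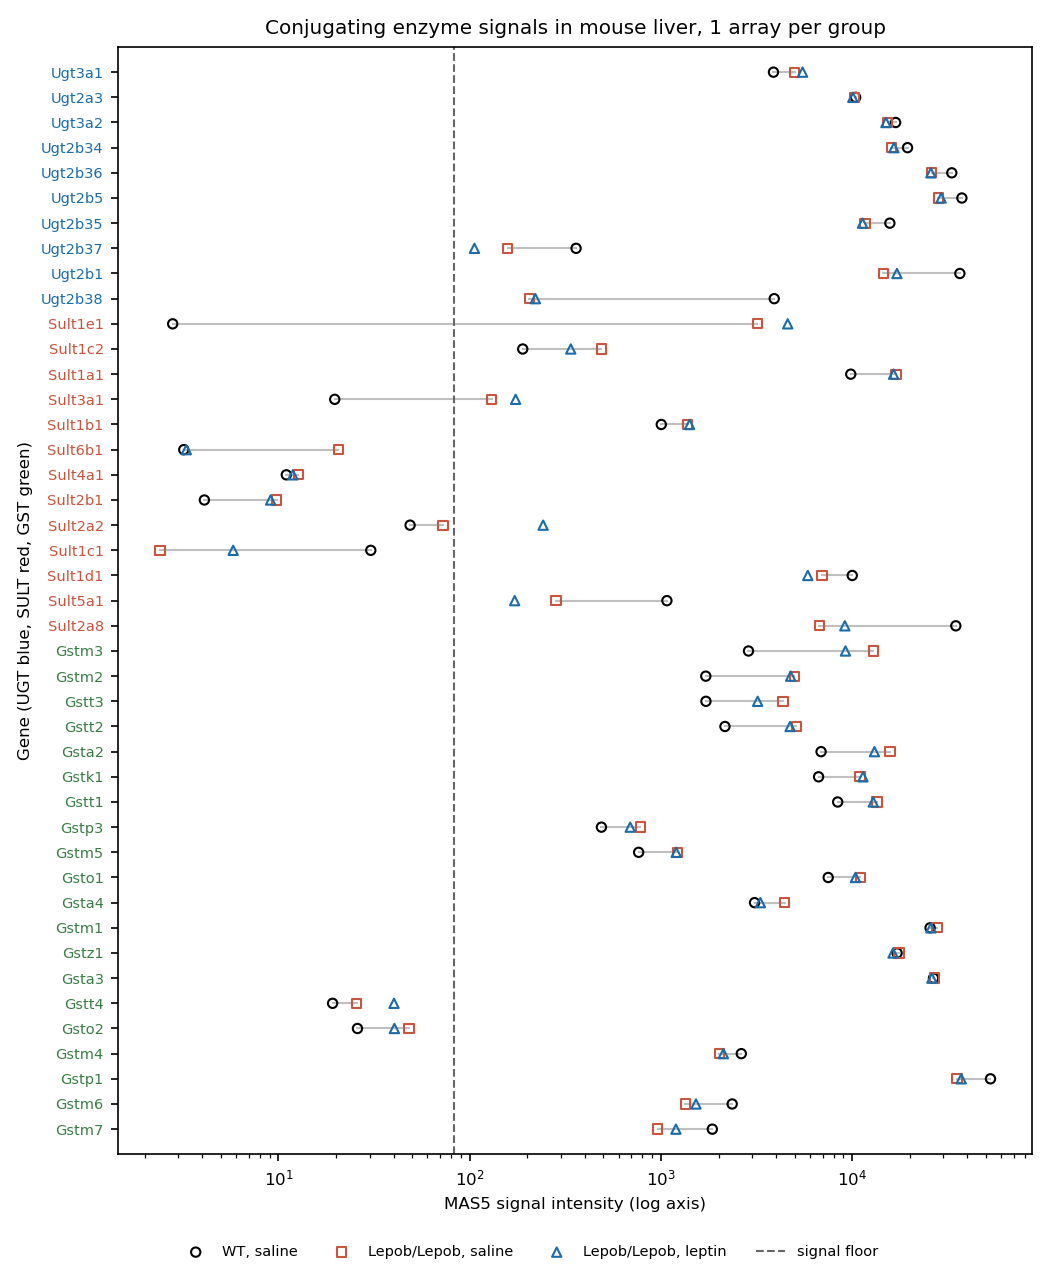
Linear array signal (log axis) of the mouse UGT, SULT and GST genes on the 3 mouse arrays, with a circle for wild type given saline, a square for Lepob/Lepob given saline and a triangle for Lepob/Lepob given leptin; the dashed line is the floor of 82.7. Sult1e1 stands apart, with the wild-type circle at 2.8 and both mutant arrays above 3187, and Ugt2b38 shows the opposite order, with the circle at 3911.7.

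Among the UGT genes of mice, Ugt2b38 differed most. Its signal was 3911.7 in wild type, 205.4 in Lepob/Lepob given saline and 220.6 in Lepob/Lepob given leptin, 19.0-fold lower with the mutation. Its log2 ratio of -4.25 was -3.34 with the floor at the 75th percentile and -3.79 on the log2(signal + floor) scale. Ugt2b enzymes conjugate steroids, bile acids and drugs. Ugt2b1 was at 36552.1, 14546.3 and 17135.9 (2.51-fold lower) and Ugt2b37 at 360.0, 158.0 and 105.9 (2.28-fold lower), in the same order of arrays. In all 3 genes the wild-type array was the high one and both mutant arrays were low. Ugt2b37 was under 2-fold with arrays centred on their medians (log2 ratio -0.93) and on the log2(signal + floor) scale (-0.88).

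The other Ugt2b genes of mice differed less. Ugt2b35 was 1.35-fold, Ugt2b5 1.33-fold, Ugt2b36 1.27-fold and Ugt2b34 1.22-fold lower in the mutant, with mutant saline signals of 11646.6 to 28205.1. Ugt2b5 and Ugt2b36 were the brightest members besides Ugt2b1, at 37454.7, 28205.1 and 29168.4, and at 33169.9, 26067.4 and 25786.1. Ugt2a3 read 10423.2, 10283.6 and 10077.8. In gene order Ugt2b34, Ugt2b1, Ugt2b35, Ugt2b36, Ugt2b5, Ugt2b37, Ugt2a3 and Ugt2b38 form a run of 8 neighbouring genes on chromosome 5. Their log2 ratios in that order were -0.28, -1.33, -0.43, -0.35, -0.41, -1.19, -0.02 and -4.25. The 3 genes past 2-fold were thus not next to each other along the run, and the signal of Ugt2b38, Ugt2b37 and Ugt2b5 differed by 19.0, 2.28 and 1.33-fold although their promoter windows were alike. Probes of near-identical Ugt2b genes may share target sequence, so each of these values may hold signal of a neighbour.

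The rest of the UGT family was near its wild-type signal in mice. The UGT3A enzymes use sugars other than glucuronic acid; Ugt3a1 was 1.29-fold higher (3876.5, 5007.4 and 5502.8) and was the only UGT gene of the 10 above 0, while Ugt3a2 read 16868.9, 15344.1 and 15015.1. Over all genes 5668 of 11956 were above 0. With arrays centred on their medians 3 of the 10 UGT genes were above 0. The Ugt1a enzymes, among them the one that conjugates bilirubin, share their last exons, and 3 probe sets annotated to several Ugt1a genes read the locus as a whole. Their mutant signals were 1.21-fold lower, 1.14-fold lower and 1.05-fold higher, from wild-type signals of 39657.7, 24410.1 and 24506.0. A probe set annotated to both Ugt2a2 and Ugt2a1 was at 142.9, 66.0 and 71.1, at least 1.73-fold lower.

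The SULT genes of mice held the largest ratio toward the mutant of the 3 families. Sult1e1, the estrogen sulfotransferase, was at 2.8 in wild type, 3187.4 in Lepob/Lepob given saline and 4601.3 in Lepob/Lepob given leptin. The wild-type signal was under the floor, so the mutant was at least 38.5-fold higher; this log2 bound of 5.27 was 7.04 and 3.05 with the floor at the 25th and 75th percentile. Sult2a8, a liver enzyme that sulfates bile acids, was at 34822.9, 6725.4 and 9150.0 (5.18-fold lower), and Sult5a1, whose substrate is not known, at 1074.5, 282.6 and 171.9 (3.80-fold lower). Sult1c2, a phenol sulfotransferase, was at 189.4, 488.1 and 337.7 (2.58-fold higher); its log2 ratio of 1.37 was 0.34 with the floor at the 75th percentile of signals, which lies above its wild-type value.

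Of the SULT genes under 2-fold, the phenol sulfotransferase Sult1a1 was 1.73-fold higher (9828.7, 16957.3 and 16463.9) and Sult1b1, which also sulfates thyroid hormones, 1.37-fold higher (1004.1, 1377.9 and 1411.6). Sult3a1 was at 19.7, 130.5 and 173.9, at least 1.58-fold higher. Sult1d1, which sulfates catecholamines, was 1.44-fold lower (10007.8, 6947.2 and 5861.1), while its second probe set read 2325.9, 2302.1 and 1751.0. Sult1b1, Sult1d1 and Sult1e1 are neighbours in gene order, with log2 ratios of 0.46, -0.53 and 5.27. Sult1c1, Sult2b1, Sult4a1 and Sult6b1 were under the floor on all 3 mouse arrays, and Sult2a2 was under it on both saline arrays.

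Most GST genes of mice were higher in the mutant, 14 of 18 by sign and 5 of them by 2-fold or more. Over all genes 5668 of 11956 were higher by sign. Gstm3, a mu-class enzyme, was at 2869.6 in wild type, 12894.6 in Lepob/Lepob given saline and 9222.1 in Lepob/Lepob given leptin (4.49-fold higher), and its second probe set gave 4.98-fold. Gstm2, its neighbour, was at 1716.2, 4981.2 and 4767.6 (2.90-fold higher). The theta-class genes Gstt3 and Gstt2 were at 1719.3, 4341.5 and 3204.1 (2.53-fold) and at 2161.4, 5098.9 and 4735.6 (2.36-fold). The alpha-class gene Gsta2 was at 6875.9, 15746.5 and 13074.7 (2.29-fold), and a probe set annotated to Gm3776, Gsta2 and Gsta1 was at 3796.3, 15345.7 and 10627.4 (4.04-fold). In each of these the wild-type array was the low one and the leptin array lay between it and the mutant saline array.

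The other GST genes of mice ran from 1.93-fold lower to 1.64-fold higher. The 6 genes between 1.44-fold and 1.64-fold higher were Gstk1 of mitochondria and peroxisomes (1.64-fold), Gstt1 (1.60-fold), Gstp3 and Gstm5 (both 1.59-fold), Gsto1, an omega-class enzyme that reduces dehydroascorbate (1.47-fold), and Gsta4, which acts on 4-hydroxynonenal (1.44-fold). The second probe set of Gsto1 was 1.05-fold lower. Gstm1 (1.09-fold higher, and 1.09 to 1.65-fold over its 4 probe sets), Gsta3 (1.01-fold higher) and Gstz1, the maleylacetoacetate isomerase of tyrosine breakdown (1.02-fold higher), were close to wild type. Gstp1, a pi-class enzyme known to be higher in male than in female mouse liver, was at 52846.1, 35286.7 and 37163.2 (log2 ratio -0.58). Gstm7 (1856.6, 960.0 and 1197.8, 1.93-fold), Gstm6 (2357.7, 1342.6 and 1524.6, 1.76-fold) and Gstm4 (1.30-fold) were also lower. Gsto2 and Gstt4 were under the floor on all 3 arrays.

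The mu-class GST genes of mice did not share a direction. They form a run of 7 neighbouring genes on chromosome 3, and in gene order Gstm5, Gstm7, Gstm6, Gstm3, Gstm2, Gstm1 and Gstm4 had log2 ratios of 0.67, -0.95, -0.81, 2.17, 1.54, 0.12 and -0.38. The 4 theta-class genes are also neighbours, and Gstt3, Gstt1 and Gstt2 had ratios of 1.34, 0.68 and 1.24, all higher in the mutant; Gstt4 was under the floor. The mu-class enzymes are alike in sequence, and a probe set of one gene may read another.

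Genes with a known sex difference in liver also differed between the genotypes of mice. Of all mouse genes 4.46% were 2-fold higher and 3.71% lower in the mutant. Of the male-biased list 9 of 11 were at least 2-fold lower in Lepob/Lepob liver and 0 higher, with a median log2 ratio of -4.31. Hsd3b5, a steroid reductase, was at 16592.6, 4.4 and 5.7, Slco1a1, an organic anion transporter, at 11000.6, 90.2 and 269.4, and Cyp7b1, an oxysterol hydroxylase, at 32074.7, 745.4 and 1305.9. Serpina4-ps1 was 43.6-fold lower. In the female-biased list 6 of 8 genes passed 2-fold upward and 0 downward, and the median was 2.63. The other 2 were lower by sign, Cyp3a44 by at least 1.94-fold and Cux2 by 1.17-fold. Cyp2b9, Acot3 and Cyp17a1 were 86.0, 29.1 and 11.6-fold higher, and Cyp2b13 was at least 32.5-fold higher. These lists were drawn up with the results of these arrays known and are not independent evidence of a direction; their part in the Sult1e1, Ugt2b and Gstp1 values was not tested.

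**Figure D2:**
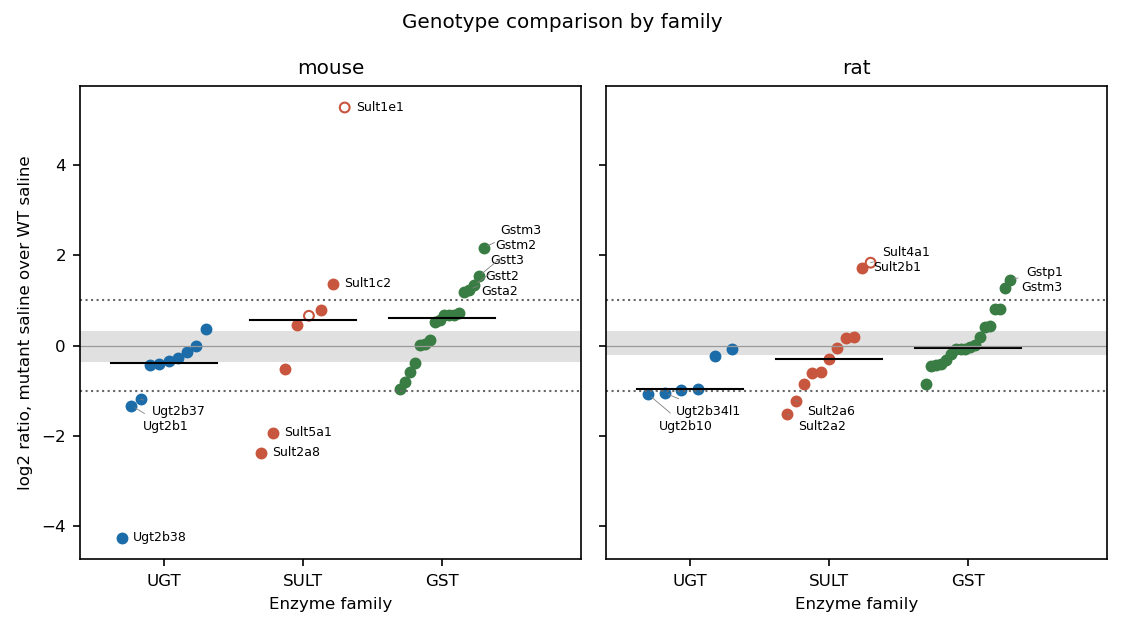
Log2 ratio of mutant to wild type, both given saline, for each UGT, SULT and GST gene of mice and rats (1 point per gene, open circles for bounds), with a black bar at each family's median, dotted lines at 2-fold and a grey band for the 25th to 75th percentile of all genes. In mice the UGT median lies at -0.38 and the GST median at 0.61; in rats all 6 UGT genes lie below 0 and the GST median is -0.05.

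In the rat genotype comparison 2-fold differences also ran in both directions. Of 35 members that entered, 4 were at least 2-fold higher in Lepmkyo/Lepmkyo liver and 4 at least 2-fold lower, 22.9% of them in all. Over all 9817 genes 4.44% were 2-fold apart, 2.99% higher and 1.45% lower. By family 0 higher and 2 lower of 6 UGT genes, 2 higher and 2 lower of 11 SULT genes, and 2 higher and 0 lower of 18 GST genes were 2-fold apart. The median log2 ratios were -0.97, -0.30 and -0.05 for UGT, SULT and GST, against 0.04 for all genes. The GST median had the opposite sign, 0.0028, after quantile normalization.

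**Figure D3:**
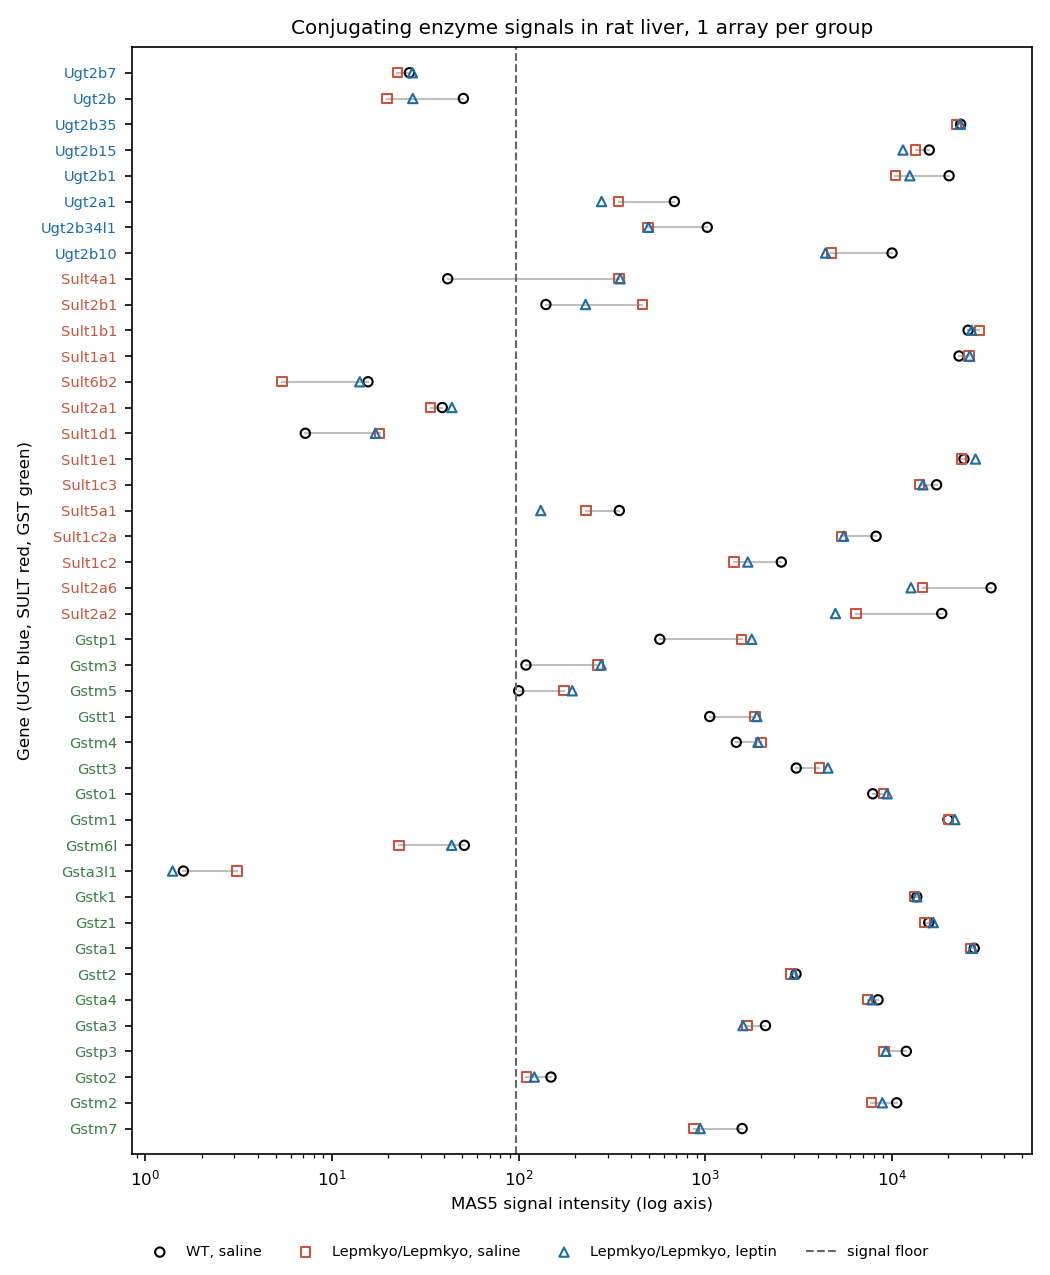
Linear array signal (log axis) of the rat UGT, SULT and GST genes on the 3 rat arrays, with a circle for wild type given saline, a square for Lepmkyo/Lepmkyo given saline and a triangle for Lepmkyo/Lepmkyo given leptin; the dashed line is the floor of 97.0. The Sult2a2 circle at 18504.7 lies above both mutant arrays, and the 3 Sult1e1 points lie together between 23576.3 and 28070.7.

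All 6 UGT genes that entered were lower in the mutant rat by sign (5 of 6 after quantile normalization). Over all genes 4393 of 9817 were lower by sign. Ugt2b10 was at 10025.9 in wild type, 4748.7 in Lepmkyo/Lepmkyo given saline and 4413.3 in Lepmkyo/Lepmkyo given leptin (2.11-fold lower), and Ugt2b34l1 at 1025.5, 494.3 and 496.7 (2.07-fold lower). Just under 2-fold were Ugt2a1, known from the olfactory epithelium, at 683.6, 344.2 and 278.5 (1.99-fold lower), and Ugt2b1, a testosterone glucuronosyltransferase, at 20262.7, 10450.5 and 12477.0 (1.94-fold lower). The wild-type array was above both mutant arrays in each of these 4. Ugt2b34l1 had a log2 ratio of -1.05 that was -0.92 on the log2(signal + floor) scale. Ugt2b15 (15865.2, 13438.0 and 11474.4) was 1.18-fold and Ugt2b35 (23360.1, 22247.8 and 23293.6) 1.05-fold lower. The 2 probe sets annotated to several Ugt1a genes were at 15778.1, 6573.3 and 6696.0 (2.40-fold lower) and at 20350.8, 15552.2 and 15887.4 (1.31-fold lower), and so differed in size. Ugt2b and Ugt2b7 were under the floor on all 3 rat arrays.

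The 2-fold lower SULT genes of rats were the hydroxysteroid sulfotransferases, which also sulfate bile acids and are known to be higher in female than in male rat liver. Sult2a2 was at 18504.7, 6429.2 and 4985.5 (2.88-fold lower) and Sult2a6 at 34015.0, 14623.0 and 12669.2 (2.33-fold lower). The wild-type array, which had the highest Xist and female-biased signals, was the high one for both. The part of that mismatch in these values was not tested. The higher genes were at low signal, and Sult4a1 was under the 75th percentile on both arrays. Sult4a1, a form known from brain, was at 41.7, 345.6 and 349.9 (at least 3.56-fold higher, a log2 bound of 1.83 that is 3.05 with the floor at the 25th percentile), and Sult2b1, a cholesterol and pregnenolone sulfotransferase, at 140.1, 460.4 and 228.5 (3.29-fold higher). The second Sult2b1 probe set was at or under about the floor, at 97.8, 66.2 and 18.5, and with the median over both the log2 ratio of 1.72 was 0.85; with the floor at the 75th percentile it was 0.02.

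Sult1e1 of rats was at 24351.5, 23576.3 and 28070.7, 1.03-fold lower in the mutant. The members of the Sult1c group were all lower, Sult1c2 by 1.79-fold (2557.4, 1426.6 and 1690.6), Sult1c2a by 1.54-fold (8233.8, 5360.6 and 5517.9) and Sult1c3 by 1.23-fold (17367.7, 14075.4 and 14667.2). A probe set annotated to RGD1562392 and Sult1c2 was 2.33-fold lower (2374.5, 1018.9 and 1065.2). Sult5a1 was 1.51-fold lower (346.5, 229.5 and 131.5). Sult1a1 and Sult1b1, at 22902.9, 25870.7 and 26122.4 and at 25620.8, 29407.1 and 26750.4, were within 1.15-fold of wild type. Sult1d1, Sult2a1 and Sult6b2 were under the floor on all 3 rat arrays.

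Among the 18 GST genes of rats, Gstp1 was at 571.0, 1566.7 and 1775.6 (2.74-fold higher). It is the placental form, known to be low in normal rat hepatocytes and high in preneoplastic foci and in bile duct cells. The 3 bile duct markers that entered were all higher in the mutant by sign, with a median log2 ratio of 0.74 and 0 at 2-fold. Krt19 (63.0 and 162.3) and Spp1 (52.1 and 147.2) were under the floor in wild type, so their ratios are bounds. Krt7 was under the floor on all 3 rat arrays. The part of these markers in the Gstp1 value was not tested. Gstm3 was at 109.5, 266.1 and 277.1 (2.43-fold higher), close to the floor, and its log2 ratio of 1.28 was 0.81 on the log2(signal + floor) scale. Gstt1 (1057.1, 1846.4 and 1891.2) and Gstm5 (100.1, 175.2 and 193.8) were both 1.75-fold higher. Gstm4 was 1.36-fold and Gstt3 1.33-fold higher.

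The bright GST genes of rats were near or somewhat under their wild-type signal. Gsta1, Gstm1 and Gstz1 read 27627.8, 26286.9 and 27037.3, 19978.2, 20068.6 and 21754.1, and 15766.9, 15057.9 and 16679.9. Gstm7 was 1.81-fold lower (1577.5, 872.1 and 940.3), Gstm2 1.37-fold lower (10609.4, 7750.9 and 8897.7) and Gstp3 1.32-fold lower (11953.6, 9063.3 and 9290.1). Gsto2 (149.1, 110.1 and 121.4) was 1.35-fold, Gsta3 1.25-fold, Gsta4 1.13-fold and Gstk1 1.03-fold lower, and Gsto1 was 1.14-fold higher. The probe set annotated to Gsta5 and Gsta2 was 1.15-fold lower. Gstt2 was at 3066.1, 2886.2 and 2994.8, while its other probe set was at 239.0, 120.9 and 130.6 (1.98-fold lower). Gsta3l1 and Gstm6l were under the floor on all 3 rat arrays.

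The genotype comparisons of mice and rats share no array, and 28 gene symbols of the families are on both. A shared symbol does not establish that genes are orthologs in these families. Of the 23 that entered in both, 12 (52.2%) had the same sign in both species, against 57.9% of 8303 shared symbols over all genes. Gstm3 alone (4.35%) was at least 2-fold higher in both, against 0.735% of all shared symbols, and 0 were 2-fold lower in both, against 0.181%. A single symbol is too few to set against those shares. The rat Gstm3 signals were close to the floor, and its rat log2 ratio was under 2-fold (0.81) on the log2(signal + floor) scale. By family the same sign was found for 2 of 2 UGT, 3 of 5 SULT and 7 of 16 GST symbols. Sult1e1 (log2 ratio 5.27 in mice and -0.05 in rats), Gstm2 (1.54 and -0.45), Sult1c2 (1.37 and -0.84) and Gstp1 (-0.58 and 1.46) lay apart between the species. Gstm7 was lower in both, at -0.95 and -0.86, and Ugt2b1 too, at -1.33 and -0.96.

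**Figure D4:**
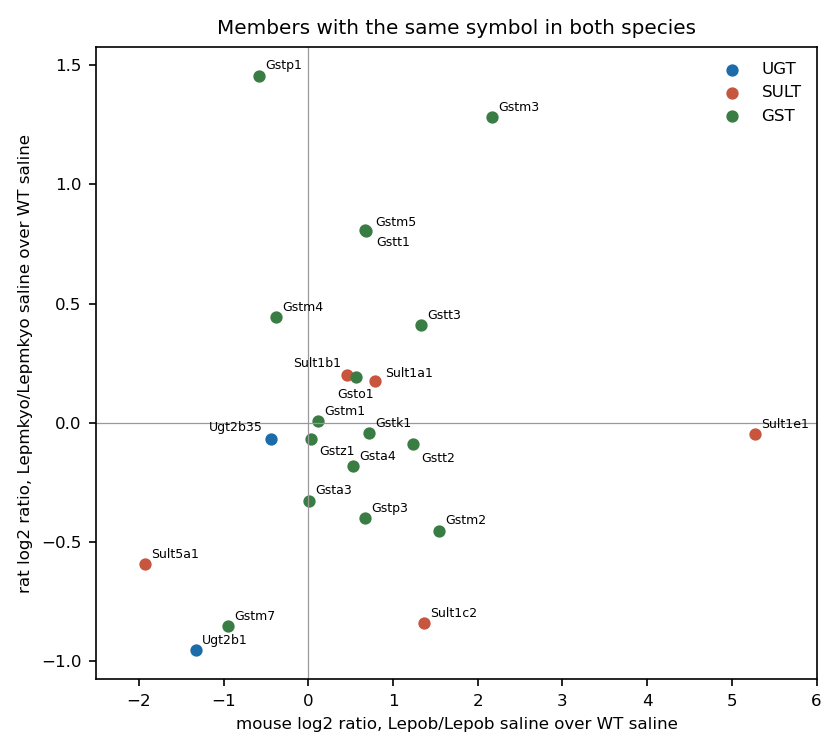
Log2 ratio of mutant to wild type in rats against that in mice for the 23 UGT, SULT and GST symbols that entered in both, with grey lines at 0. Gstm3, close to the floor in rats, is the only symbol past 2-fold in the same direction in both, and Sult1e1 lies at 5.27 in mice and -0.05 in rats.

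Few of these signals were 2-fold apart 6 h after leptin. Of the 37 mouse members that entered, 1 was 2-fold higher (2.70%) and 0 lower, where 0.425% of all 11536 genes were 2-fold apart, 0.182% higher and 0.243% lower. Of the 35 rat members 0 were 2-fold higher and 1 lower (2.86%), where 0.515% of all 9705 genes were 2-fold apart, 0.237% higher and 0.278% lower. The medians of the families were between -0.07 and 0.03 in mice and between -0.05 and 0.07 in rats. A single gene is too few to set against those shares.

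The mouse gene was Sult2a2, a hydroxysteroid sulfotransferase, at 72.4 in Lepob/Lepob given saline and 242.1 after leptin. It was under the floor on the saline array and at least 2.93-fold higher after leptin, and wild type was at 48.8. With the floor at the 75th percentile it entered on no array. The rat gene was Sult2b1, at 460.4 and 228.5 (2.01-fold lower), which was under 2-fold after quantile normalization (log2 ratio -0.98), with arrays centred (-0.95) and on the log2(signal + floor) scale (-0.78), and close to 0 with the floor at the 75th percentile (-0.024). Sult5a1 was lower in both species after leptin, 1.64-fold in mice (282.6 and 171.9) and 1.75-fold in rats (229.5 and 131.5).

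**Figure D5:**
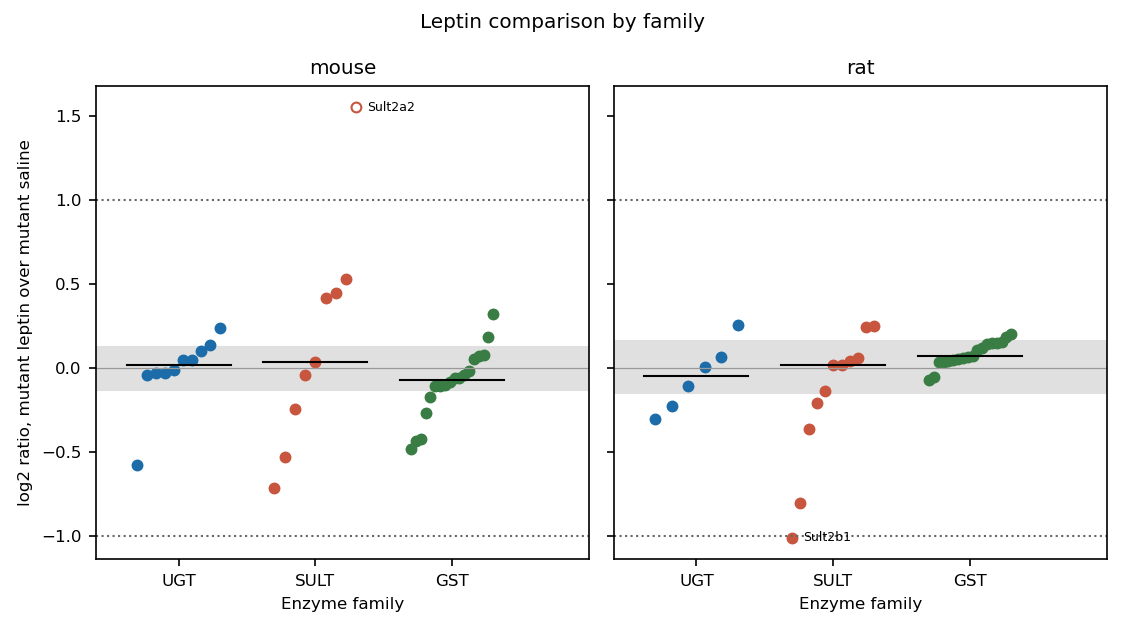
Log2 ratio of mutant given leptin to mutant given saline for each UGT, SULT and GST gene of mice and rats (1 point per gene, open circles for bounds), with a black bar at each family's median, dotted lines at 2-fold and a grey band for the 25th to 75th percentile of all genes. Sult2a2 of mice and Sult2b1 of rats are the 2 points past 2-fold.

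Apart from rat Sult2b1, every member 2-fold apart between genotypes was under 2-fold after leptin in the same species. In mice Ugt2b38 was at 205.4 without and 220.6 with leptin, against 3911.7 in wild type, and Sult2a8 at 6725.4 and 9150.0 against 34822.9. Sult1e1 was 1.44-fold higher after leptin (log2 ratio 0.53), and so farther from wild type. Sult5a1 and Ugt2b37 (158.0 and 105.9) were lower in the mutant, lower again after leptin and so also farther. The other mouse members 2-fold apart between genotypes were nearer to wild type after leptin. In rats Sult2a2, Sult2a6, Ugt2b10, Gstp1, Gstm3 and Sult4a1 were farther from wild type after leptin, by at most 1.29-fold (Sult2a2). Rat Ugt2b34l1, nearly unchanged, and rat Sult2b1 (140.1 in wild type) were nearer to it. Gstm3 was 1.40-fold, Gstt3 1.35-fold, Gsta4 1.34-fold and Gsta2 1.20-fold lower after leptin. By sign 13 of 18 mouse GST genes were lower after leptin, where 5825 of all 11536 genes were lower. In rats 16 of 18 GST genes were higher, where 5045 of all 9705 genes were higher. The rat count was 14 after quantile normalization and 17 with arrays centred, which moved the median of all genes to 0.07. The GST log2 ratios ranged from -0.48 to 0.32 in mice and from -0.07 to 0.20 in rats. Apart from Gstm3, Gstt3, Gsta4, Gsta2 and Gstm7 of mice, every one of these GST ratios was smaller than the SD of 0.26 and 0.25 among probe sets of a gene.

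Genes that serve the 3 reactions were read from lists of their own. Of all genes 4.46% were 2-fold higher and 3.71% lower in mutant mice, and 2.99% and 1.45% in mutant rats. Of the genes that supply UDP-glucuronic acid, PAPS and glutathione, 0 of 14 were 2-fold higher and 1 of 14 lower in mutant mice. The lower one was Papss1, a PAPS synthase, at 814.6, 406.1 and 519.6 (2.01-fold). Papss2, the main PAPS synthase of liver, was at 5613.9, 3579.0 and 3005.1 in mice and at 7944.3, 4562.4 and 5472.8 in rats, with wild type the highest array in both species. Ugdh, which makes UDP-glucuronic acid, was at 8054.0, 8664.2 and 8141.1 in mice and at 7156.0, 5966.3 and 5510.9 in rats. In mutant rats 1 of 13 supply genes was higher, Gss, a glutathione synthase (1097.5, 2311.5 and 2052.7), and 1 lower, Gsr, the glutathione reductase (998.5, 360.0 and 457.7).

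Transporters and hydrolases of conjugates were mostly higher by sign in mutant mice, 10 of 12, where 5668 of all 11956 genes were higher. Their median log2 ratio was 0.65, and 1 gene passed 2-fold. That was Abcc4, a basolateral exporter of conjugates, at 165.8, 648.6 and 529.1 (3.91-fold higher). In rats 0 of 13 were 2-fold apart and the median was -0.01. Among other conjugating and phase 2 enzymes of mutant mice, 3 of 18 were higher and 1 lower. Mgst3, a microsomal glutathione transferase, was at 553.8, 3895.6 and 2866.8 (7.03-fold higher), Nqo1, a quinone reductase, 3.17-fold higher and Hnmt, the histamine methyltransferase, 2.16-fold higher. Tpst1, which sulfates protein tyrosines in the Golgi, was lower in both species, 3.07-fold in mice and 2.37-fold in rats. In rats 2 of 17 were lower and 0 higher, with Nat8, which acetylates cysteine conjugates, the second one at 928.1, 276.4 and 589.4.

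Of the regulators of these families, 2 of 21 were higher and 0 lower in mutant mice. Ppara, the fatty acid receptor, was at 2229.8, 7563.5 and 7609.8 (3.39-fold higher) and Maff, a small Maf partner of NRF2, at least 2.26-fold higher. The receptors for foreign compounds were under 2-fold: Nr1i3 (CAR) was at 2112.6, 3528.4 and 3236.0 and Nr1i2 (PXR) at 603.4, 714.1 and 885.3. Nfe2l2, which encodes NRF2, was at 2280.2, 3395.1 and 3221.0. In rats Cux2, a transcription factor that is female-biased in liver, was 4.86-fold lower, 1 of 18, and 0 were higher. Nr1i2 was at 2064.6, 1089.4 and 1134.8, Nr1i3 at 1038.8, 1170.5 and 920.9 and Nfe2l2 at 3409.1, 3181.9 and 3429.1. After leptin, Nat8 of rats (2.13-fold higher) was the only gene of these 4 lists past 2-fold in either species. In the sex-biased lists of mice, Slco1a1 (2.99-fold) and Egfr (2.18-fold) were higher and Cyp2b13 (2688.2 to 501.3, 5.36-fold) lower after leptin.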

How the data were processed

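Each of the 6 groups was 1 Affymetrix array of total liver RNA (6 arrays, 3 per species). The deposited values are linear signal intensities per probe set, made by the authors with MAS5, per the submitters' processing notes; the scanner images and the MAS5 settings were not used here. MAS5 subtracts mismatch probe signal and scales each array, which makes low values noisy, and a total of reads does not exist, so precision is limited by the number of arrays. Signals were used as deposited, without further normalization. Probe sets were named from the platform annotation: 34945 mouse and 20826 rat probe sets had 1 symbol, 932 and 436 several and 9160 and 9780 none. Log2 ratios were computed with the floor and the 2-fold rule given above, and no test was run. The ratio and call steps were tested on simulated data, with changes put into genes well above the floor. The recovery of bounds was not tested.

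The text names members at least 2-fold apart, the 3 brightest of each family and species, up to 4 genes per other list past 2-fold in each comparison, and genes fixed by name; further members are named to account for every gene. The family members and gene lists were chosen with earlier results of these data known. The sex-linked transcripts and the TATA box, nuclear receptor half-site and HNF1 motifs were added after the data were seen. Promoter windows came from RefSeq (GRCm38.p6); rat promoters and protein sequences were not analysed here. The alternatives tried were quantile normalization, median centring, floors at the 25th and 75th percentile, log2(signal + floor), the median over probe sets, leaving out probe sets of shared sequence, and a 1.5-fold call. Python 3.11.15, numpy 2.4.6 and pandas 2.3.3 were used, with matplotlib 3.10.9 for figures.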

Additional observations from a re-analysis of the deposited data

Results flagged for a closer look

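Of the symbols read in both species, 5 had genotype log2 ratios of opposite sign with at least 1 of them past 2-fold. That is 21.7% of the 23 members read in both, against 3.54% of all 8303 shared symbols, and the members were also past 2-fold more often in each species alone, as given above. With 1 array per group the difference between the species was not tested. Sult1e1 was at 5.27 in mice, a lower bound, and -0.047 in rats. Gstm2 was at 1.54 and -0.45, Sult1c2 at 1.37 and -0.84, and Gstt2 at 1.24 and -0.087. Gstp1 went the other way, at -0.58 in mice and 1.46 in rats. The rat ratios of Sult1e1 and of the brighter Gstt2 probe set are so close to 0 that their sign carries no information. The other rat Gstt2 probe set, at lower signal (239.0, 120.9 and 130.6), was 1.98-fold lower in the mutant. The rat values stand beside the sex-linked transcripts described above.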

How the results depend on the processing

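The members 2-fold apart numbered 12 and 1 in the genotype and leptin comparisons of mice and 8 and 1 in those of rats. No alternative reversed a called ratio. With a 1.5-fold call the counts were 20 and 2 in mice and 16 and 2 in rats, where 24.8%, 4.39%, 16.1% and 4.71% of all genes passed. With the floor at the 75th percentile, the leptin counts were 0 in mice and 0 in rats and the rat genotype count 5. The rat leptin count was also 0 after quantile normalization, 0 with arrays centred and 0 on the log2(signal + floor) scale. The other alternatives kept every count within 1.5 times. A higher floor takes in fewer genes; the cause of the other shifts was not tested. The bound of Sult1e1 in mice follows the floor, with a log2 ratio of 7.04 at the 25th and 3.05 at the 75th percentile. Leaving out a replicate was not possible with 1 array per group. No paired analysis was possible because the groups share only the replicate number 1.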

Other observations

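All 4 rat Xist probe sets had their highest signal on the wild-type array: 5252.1, 3699.1 and 2795.8, 5572.2, 3034.1 and 2505.7, 3558.3, 1952.8 and 1684.7, and 2264.9, 1142.9 and 977.9 on the wild-type, mutant saline and mutant leptin arrays. The brighter Uty probe set was at 1600.3, 1173.3 and 1155.1 and Eif2s3y at 782.9, 1255.9 and 1218.4 on the same arrays. Cyp2c12, a female-specific steroid hydroxylase, was at 36491.8, 25121.8 and 28945.5, and Cyp2c11, its male-specific counterpart, at 29009.2, 26255.0 and 28878.4. On the mouse arrays Eif2s3y was at 3136.1, 2762.7 and 2708.6. Whether a rat array held RNA of more than 1 animal was not tested.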
